A study of Mus musculus with 18 samples.

Results

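The ADAM, ADAMTS and ADAMTSL genes and the TIMP genes were followed in cultured mouse tendon fibroblasts exposed to material secreted by T cells. The members were every gene of the deposited table whose symbol begins with Adam, Adamts or Adamtsl and a number, together with Timp1 to Timp4, and they came to 36 of 14391 genes. They comprised 16 ADAM genes, 12 ADAMTS genes, 4 ADAMTSL genes and 4 TIMP genes. A further 26 protein-coding symbols that fit the same pattern in RefSeq were not analysed here. ADAM proteins are mostly membrane-anchored proteases that shed the outer part of other surface proteins, and some members have lost the protease site. ADAMTS proteins are secreted, bind the extracellular matrix and cut proteoglycans, procollagens and other matrix proteins, whereas ADAMTSL proteins resemble them but carry no protease domain and bind microfibrils. TIMPs are small secreted inhibitors of these enzymes and of matrix metalloproteinases, and in tendon this balance sets how collagen and proteoglycans are processed and turned over.

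Wild-type fibroblasts from adult or neonatal mouse tendon were sequenced as 18 libraries in 6 groups of 3. Cells of each age received complete medium mixed 1 ml to 1 ml with T cell medium (here media), with supernatant of stimulated adult T cells (adult supernatant) or with supernatant of stimulated neonatal T cells (neonatal supernatant). All groups share collagenase digestion for 2.5 h, 2 passages, freezing, and 3 days of culture from thawed cells, but during digestion neonatal tendons were vortexed and adult tendons pipetted. Cells of 4 adult or 3 neonatal tendons were pooled in a well, so that a library does not stand for 1 tendon. The sources used here give neither mouse strain, nor exact ages, nor the length of the treatment. Whether libraries of 1 group stand for separate mice or cultures is not stated in the labels, so every p-value measures the spread between these libraries alone, which may be technical. From the title, the series asks about an intrinsic resistance of neonatal tendon cells to inflammation and about factors that T cells secrete.

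Levels are in CPM, counts scaled to a common library total, on the scale of the deposited log2 values, which include an offset of 0.127 CPM, so that a gene without reads appears at 0.127. Depth estimated from the low values was 12.7 to 17.7 M reads per library, at which 3 reads equal 0.169 to 0.237 CPM (counting error only). The tendon identity list (10 of 10 genes measured) summed to 29178 to 30968 CPM in adult cells in media, 20869 to 27652 CPM with neonatal supernatant and 9716 to 11293 CPM with adult supernatant. In neonatal cells it summed to 28477 to 31959, 22258 to 24689 and 12720 to 13319 CPM in the same order. Col1a1 and Col1a2 made up most of it, with means of 19572 and 9433 CPM in adult cells in media. With adult supernatant Scx, Tnmd, Fmod, Thbs4 and both collagens were below media in each age. Dcn was above, at 125 to 211 CPM in media and 273 to 317 CPM with adult supernatant in adult cells. In neonatal cells Dcn was at 42.4 to 83.1 and 243 to 317 CPM. Pdgfra was above media in neonatal cells alone, Lum below media in adult cells alone, and Mkx overlapped media in both. The T cell list (7 of 10 genes measured) summed to 3.87 to 8.87 CPM in all media libraries and to 15.3 to 42.9 CPM in those with adult supernatant. With neonatal supernatant it summed to 10.7 to 16.8 CPM in adult and 5.82 to 13.1 CPM in neonatal cells. Its defining marker Cd3d was at 0.233 to 0.783 CPM in media and 0.862 to 3.37 CPM with adult supernatant in adult cells, and at 1.06 to 2.52 and 1.69 to 2.11 CPM in neonatal cells, where the ranges overlap. The other measured genes of the list, Cd4, Cd8a, Cd28, Lck, Il2ra and Ptprc, did not overlap between these conditions in neonatal cells. There Cd4 was at 0.152 to 0.266 CPM in media and 3.11 to 3.53 CPM with adult supernatant. In adult cells Cd8a and Lck overlapped. The mural cell list (6 of 7 genes measured) summed to 1218 to 1268 CPM in adult cells in media, 757 to 893 CPM with neonatal and 307 to 357 CPM with adult supernatant, and to 741 to 1039.7, 573 to 715 and 254 to 267 CPM in neonatal cells. Their part in the results on the members was not tested. In these bulk samples, fewer cells of a type and less RNA per cell cannot be told apart. Library 2 of adult cells in media and library 1 of neonatal cells in media were high in type I interferon genes, with a mean of 3.08 and 3.07 log2 CPM against 0.22 to 1.64 in the other media libraries. Library 3 of neonatal cells with neonatal supernatant lay nearer to media than its companions for several members, and values without it are given beside the results that it moves most.

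Of the 36 members, 22 were called in adult cells with adult supernatant against media, that is, passed an adjusted p of 0.05 in limma, with 9 higher and 13 lower. Over all genes tested 52.0% were called (28.2% higher and 23.9% lower), so the members' share of 61.1% was near the background. In neonatal cells adult supernatant gave 25 calls, 13 higher and 12 lower, against 47.8% of all genes (28.3% higher and 19.5% lower). Neonatal supernatant gave 13 calls in adult cells, 9 higher and 4 lower, where 27.3% of all genes were called (16.1% and 11.2%). In neonatal cells it gave 11 calls, 7 higher and 4 lower, where 18.3% of all genes were called (10.7% and 7.62%). Set directly against adult supernatant, neonatal supernatant left 14 members higher and 5 lower in adult cells (all genes 28.6%, of which 15.1% higher and 13.5% lower) and 13 higher and 8 lower in neonatal cells (all genes 32.4%, 13.7% and 18.7%). Without library 3 of neonatal cells with neonatal supernatant, 14 of the latter 21 calls remained, and those of Timp2, Adam28, Adamts1, Adamts3, Adamts5, Adamts17 and Adamtsl1 were lost. Members did not move one way as a set. Their median log2 difference was -0.16 in adult and -0.05 in neonatal cells with adult supernatant, beside 0.03 and 0.07 over all genes. With neonatal supernatant the medians were 0.06 and 0.02, beside 0.03 and 0.04 over all genes. The comparisons of one cell age share their media libraries and are not independent of each other.

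With adult supernatant, 9 members were called higher in cells of both ages (Timp1, Timp4, Adam8, Adam17, Adam28, Adam32, Adamts7, Adamts9 and Adamts17) and 10 were called lower in both (Timp3, Adam12, Adam23, Adam33, Adamts1, Adamts10, Adamts12, Adamtsl3, Adamtsl4 and Adamtsl5). Over all genes, 22.2% were called higher and 15.5% lower in both ages. Adamts15 was the 1 member called in opposite directions, as were 0.306% of all genes. Across all 4 comparisons of a supernatant with media, Timp1 and Timp4 were called higher each time and Adam33 and Adamts10 lower each time, beside 6.88% and 4.04% of all genes. The 7 members called in none of the 4 were Adam11, Adam19, Adam1a, Adam22, Adam4, Adam5 and Adamts4, and 35.1% of all genes were called in none.

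**Figure D1:**
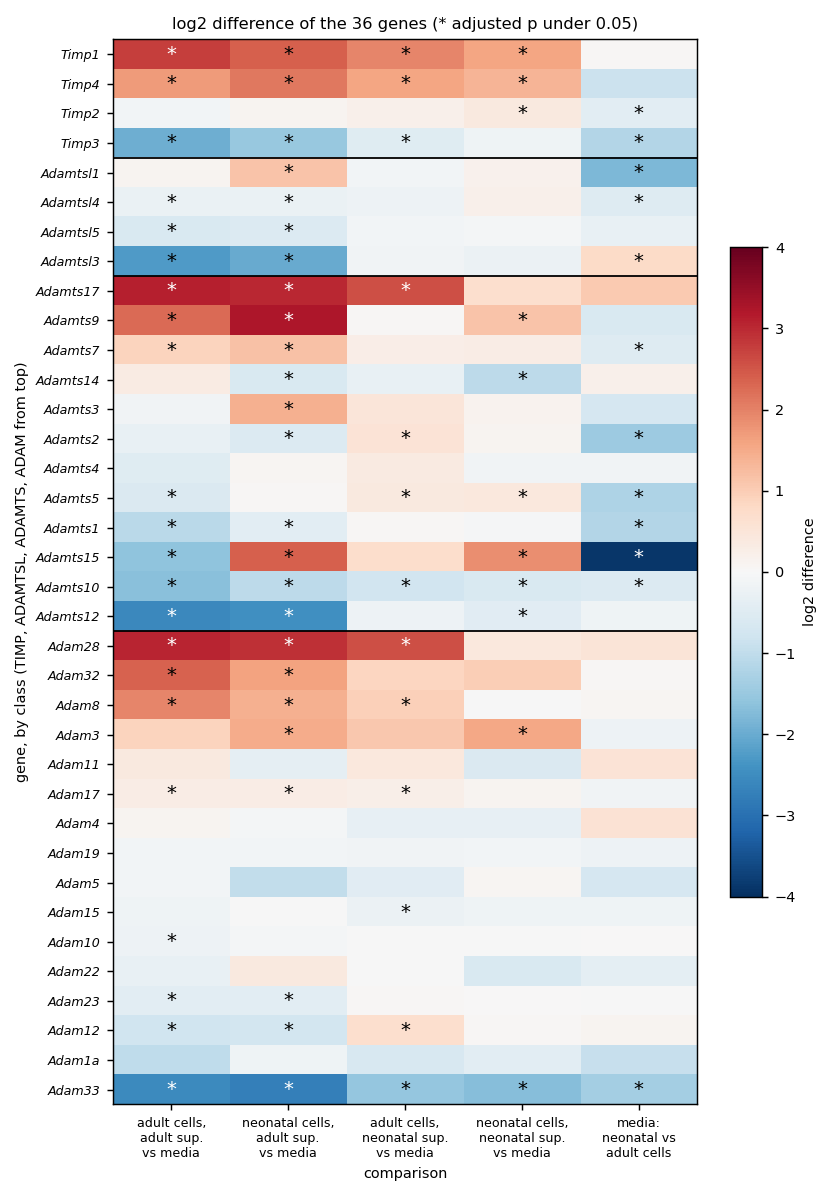
Log2 differences of the 36 members (rows, by gene class) for each supernatant against media in adult and neonatal cells and for neonatal against adult cells in media (columns), with asterisks where limma's adjusted p is under 0.05. The colour scale ends at -4 and 4. Timp1, at 2.77 in adult cells with adult supernatant, and Adamts12, at -2.59, stand among the strongest colours, while Adam10 and Adam19 stay near 0.

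Among the inhibitors, Timp1 rose and Timp3 fell with adult supernatant, Timp2 was not called with it, and Timp4 was scarcely detected. Timp1 encodes a secreted inhibitor of many matrix metalloproteinases and of ADAM10. In adult cells, Timp1 stood at 436, 398 and 490.0 CPM in media, 1919, 1647 and 1536 CPM with neonatal supernatant and 3130.2, 2705 and 3182 CPM with adult supernatant. In neonatal cells, Timp1 measured 486, 451 and 418 CPM in media, 1508, 1518 and 1063 CPM with neonatal supernatant and 2321, 2287 and 2502 CPM with adult supernatant. Within each age, the 3 conditions did not overlap, and adult supernatant gave the highest level. The log2 differences from media were 2.77 ± 0.12 (limma adjusted p = 1.43e-11) and 2.39 ± 0.12 (limma adjusted p = 9.28e-11) with adult supernatant, a rise of 6.82-fold and 5.25-fold. For neonatal supernatant they were 1.95 ± 0.12 (limma adjusted p = 7.43e-09) in adult and 1.58 ± 0.12 (limma adjusted p = 9.74e-08) in neonatal cells. Library 3 of neonatal cells with neonatal supernatant was the lowest of its group, and without it the neonatal difference was 1.75 (limma adjusted p = 4.8e-09). Timp1 was lower with neonatal than with adult supernatant, with log2 differences of -0.82 ± 0.12 in adult cells and -0.82 ± 0.12 in neonatal cells (limma adjusted p = 5.91e-05 and 8.42e-05). In media the ages did not differ by the test (0.04 ± 0.12 (limma adjusted p = 0.868)).

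Timp3, the TIMP that binds to the matrix and inhibits ADAM17 and the aggrecanases ADAMTS4 and ADAMTS5, went the other way. In adult cells, Timp3 stood at 6282, 6511 and 5635 CPM in media, 3896, 4617 and 4724 CPM with neonatal supernatant and 1465, 1842 and 1492 CPM with adult supernatant. In neonatal cells, Timp3 was at 2869, 2695 and 2629 CPM in media, 2015, 2172 and 3242 CPM with neonatal supernatant and 974, 999 and 920.1 CPM with adult supernatant. The adult-cell conditions were separate, with media highest and adult supernatant lowest, whereas in neonatal cells only adult supernatant was separate from media. With adult supernatant Timp3 fell by 1.95 ± 0.14 log2 units in adult cells (limma adjusted p = 3.21e-09) and fell by 1.50 ± 0.14 in neonatal cells (limma adjusted p = 1.05e-07). With neonatal supernatant it fell by 0.48 ± 0.14 in adult cells (limma adjusted p = 0.0142). The Timp3 call was lost without the pair of media libraries high in interferon genes, without library 2 of adult cells in media and without library 1 of adult cells with neonatal supernatant (log2 difference -0.44 to -0.39, limma adjusted p 0.0515 to 0.0747). In neonatal cells the difference with neonatal supernatant was -0.17 ± 0.14 (limma adjusted p = 0.431), and library 3, at 3242 CPM, lay above every media library. Without that library it was -0.38 (limma adjusted p = 0.0136), which passes the threshold. In media neonatal cells held less Timp3 than adult cells (log2 difference -1.17 ± 0.14, limma adjusted p = 1.06e-05).

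Timp2 encodes an inhibitor that also takes part, with MMP14, in activating MMP2. In adult cells, Timp2 stood at 3378, 3659.8 and 3401 CPM in media, 4235, 4291 and 3622 CPM with neonatal supernatant and 3183, 3115 and 3488 CPM with adult supernatant. In neonatal cells, Timp2 stood at 2795, 2731 and 2361 CPM in media, 3117, 3186 and 4064 CPM with neonatal supernatant and 2642, 2863 and 3007 CPM with adult supernatant. Only the neonatal cells with neonatal supernatant were separate from their media libraries. That difference was 0.39 ± 0.10 (limma adjusted p = 0.0101), and 0.27 (limma adjusted p = 0.0475) without library 3, the highest of its group. The Timp2 call was lost with the compared groups alone and without library 3 of neonatal cells in media (log2 difference 0.31 to 0.39, limma adjusted p 0.0544 to 0.0622). Adult supernatant left Timp2 at -0.09 ± 0.10 in adult and 0.11 ± 0.10 in neonatal cells, neither called. The adult-cell difference with neonatal supernatant, 0.22 ± 0.10, was not called either and passed under quantile normalization and without library 3 of adult cells with neonatal supernatant (log2 difference 0.29 to 0.36, limma adjusted p 0.0107 to 0.0479). Neonatal cells in media held less Timp2 than adult cells (-0.41 ± 0.10 (limma adjusted p = 0.00492)). The Timp2 call was lost under quantile normalization (log2 difference -0.27, limma adjusted p 0.0501). Timp4, best known from heart, did not reach 1 CPM in any media library. In adult cells Timp4 was at 0.474, 0.558 and 0.521 CPM in media, 1.59, 1.27 and 1.78 CPM with neonatal supernatant and 1.37, 2.57 and 1.35 CPM with adult supernatant. Neonatal cells gave 0.249, 0.242 and 0.381 CPM, 0.466, 0.898 and 0.925 CPM and 1.35, 0.891 and 1.54 CPM of Timp4 in the same order. Its 4 calls, from 1.36 ± 0.39 to 2.11 ± 0.39, start from levels of a few reads. All 4 were lost under quantile normalization, where the difference fell to between 0.44 and 0.74 (limma adjusted p from 0.173 up to 0.501). The Timp4 call in neonatal cells with neonatal supernatant was lost under quantile normalization, with a pseudocount of 1 CPM, with the compared groups alone, without the pair of media libraries high in interferon genes, without libraries 1 and 2 of neonatal cells in media and without libraries 2 and 3 of neonatal cells with neonatal supernatant (log2 difference 0.44 to 1.36, limma adjusted p 0.0734 to 0.501).

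**Figure D2:**
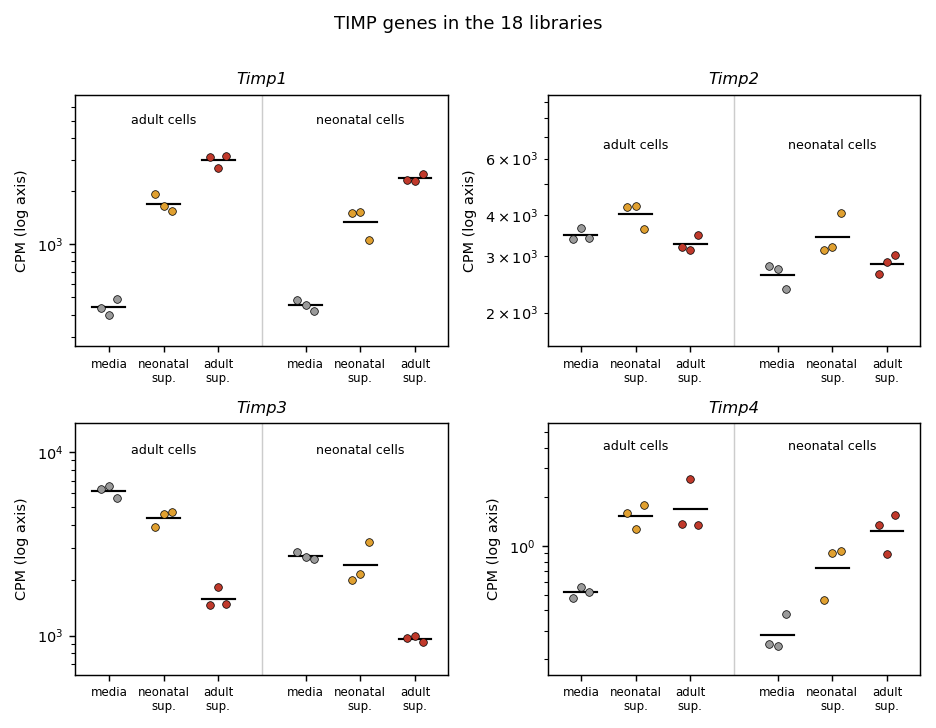
Level of each TIMP gene (CPM on a log axis) in the 18 libraries, by cell age and condition, with a line at the geometric mean of each group of 3. Timp1 climbs from 398 to 490 CPM in adult cells in media to 2705 to 3182 CPM with adult supernatant while Timp3 drops, and Timp4 never exceeds 2.57 CPM.

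To compare TIMP genes with one another, CPM were divided by the length of the longest annotated protein-coding transcript. On this per-kilobase scale, the order in adult cells in media was Timp3 (1301 ± 96.3 CPM per kb, SD, n = 3), Timp2 (938 ± 42.2) and Timp1 (499.8 ± 52.5). The order was Timp2 (709 ± 63.2), Timp3 (578 ± 26.2) and Timp1 (511 ± 38.8) in neonatal cells in media, with ranges that did not overlap between Timp2 and Timp3. No ADAM or ADAMTS gene came near these levels, the highest in adult cells in media being Adam15 (104 ± 2.30 CPM per kb) and Adamts1 (98.8 ± 16.8). Of the summed TIMP level per kb, Timp1 made up 18.3 ± 2.42% in adult cells in media (SD, n = 3), 48.6 ± 3.34% with neonatal supernatant and 73.6 ± 2% with adult supernatant. The Timp3 share went from 47.5 ± 2.33% through 23.8 ± 3.54% to 7.39 ± 1.47%. In neonatal cells the Timp1 share was 28.4 ± 0.349%, 51.4 ± 9.63% and 73.5 ± 0.863%, and the Timp3 share 32.2 ± 1.07%, 17.5 ± 4.78% and 5.6 ± 0.461%. Thus, on this scale, Timp1 was the smallest of the 3 abundant TIMPs in media and the largest with either supernatant. The latter depends on the lengths used, 883 nt for Timp1, 3709 nt for Timp2 and 4722 nt for Timp3, and no other lengths were tried. In CPM, mean Timp1 stayed below mean Timp2 in every group, with 3005 against 3262 CPM in adult cells with adult supernatant. Library 3 of neonatal cells with neonatal supernatant stood apart, with a Timp1 share of 40.3% against 57.4% and 56.6%. The sum itself was 2739 ± 75.4 CPM per kb in adult cells in media, 3953 ± 216 with neonatal and 4622 ± 294 with adult supernatant, and 1799 ± 124, 3000 ± 33.5 and 3654 ± 162 in neonatal cells. These shares are descriptions and were not tested.

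**Figure D3:**
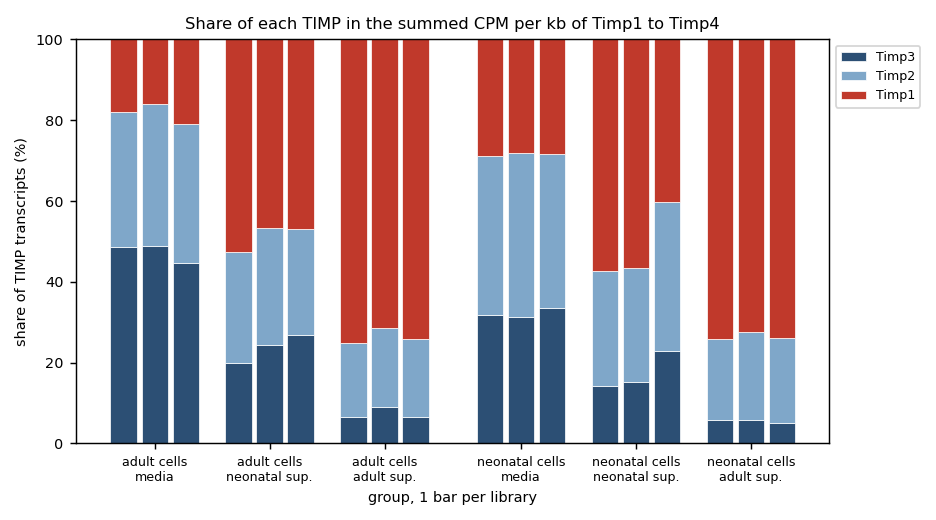
Share of the summed TIMP level (percent of CPM per kb) taken by each TIMP gene in each of the 18 libraries, as stacked bars from 0 to 100%. The Timp1 part grows from a mean of 18.3% in adult cells in media to 73.6% with adult supernatant as the Timp3 part shrinks from 47.5% to 7.39%, and Timp4 is too small to be seen.

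The 250 bases before the annotated start are shown for 3 members, the TIMP genes that moved in opposite directions and Adamts9, an ADAMTS gene that rose with adult supernatant. They come from RefSeq on GRCm38.p6, which holds an entry for 22 of the 36 members (24 promoters), while the deposited values were made on GRCm39. Timp1 is at chrX:20869916-20870165 on the plus strand, Timp3 at chr10:86300162-86300411 on the plus strand and Adamts9 at chr6:92943535-92943784 on the minus strand, each written 5′ to 3′ along its gene. Capitals mark a match to the NF-kB motif, searched by name on both strands.
Timp1: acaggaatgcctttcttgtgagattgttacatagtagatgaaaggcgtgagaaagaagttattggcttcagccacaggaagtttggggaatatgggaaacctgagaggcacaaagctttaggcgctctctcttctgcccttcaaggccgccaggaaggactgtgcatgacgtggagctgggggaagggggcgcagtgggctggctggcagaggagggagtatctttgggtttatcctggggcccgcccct
Timp3: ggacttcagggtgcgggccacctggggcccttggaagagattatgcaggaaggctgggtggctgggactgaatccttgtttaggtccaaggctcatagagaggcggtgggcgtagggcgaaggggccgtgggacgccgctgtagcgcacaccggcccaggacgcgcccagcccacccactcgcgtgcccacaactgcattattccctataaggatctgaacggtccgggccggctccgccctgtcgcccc
Adamts9: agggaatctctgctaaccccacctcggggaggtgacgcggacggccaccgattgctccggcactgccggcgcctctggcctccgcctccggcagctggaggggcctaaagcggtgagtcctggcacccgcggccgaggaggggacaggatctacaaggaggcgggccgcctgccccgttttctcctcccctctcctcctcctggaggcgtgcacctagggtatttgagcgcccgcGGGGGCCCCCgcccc

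The Adamts9 match begins 15 bases before the start, and Timp1 and Timp3 hold no match to any of the motifs searched. Over the 24 member promoters, the NF-kB motif was found in 2 (Adam19 and Adamts9), beside 7.25% of 32851 promoters of the same length. The STAT motif TTCNNNGAA was found in 0 of 24 (7.02% of all promoters), the interferon-regulatory-factor motif in 0 of 24 (2.98%), the AP-1 motif TGANTCA in 1, Adam19 (6.75%), and the CArG box in 0 of 24 (1.47%). A match describes these letters in this window and is not a bound site. In the reference annotation Timp1, Timp3 and Timp4 lie inside Syn1, Syn3 and Syn2 on the opposite strand, and exons of Timp3 and Timp4 overlap exons of those genes. The sources used here give no strand setting for the counting, so reads of overlapping exons cannot be told apart.

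Of the 12 ADAMTS genes, 8 were called with adult supernatant in adult cells (3 higher, 5 lower) and 10 in neonatal cells (5 higher, 5 lower). Neonatal supernatant gave 4 calls in adult cells (3 higher, 1 lower) and 6 in neonatal cells (3 higher, 3 lower). The shares of all genes called were 52.0% and 47.8% with adult and 27.3% and 18.3% with neonatal supernatant. They are taken here by their known substrates. The proteoglycan-cutting enzymes come first. Adamts5, the main aggrecanase of mouse cartilage, responded to the supernatants in different directions. In adult cells, Adamts5 stood at 685, 906 and 695 CPM in media, 927, 1137 and 939 CPM with neonatal supernatant and 488, 581 and 466 CPM with adult supernatant. In neonatal cells, Adamts5 came to 341, 323 and 300.5 CPM in media, 396, 443 and 457 CPM with neonatal supernatant and 327, 343 and 330.2 CPM with adult supernatant. In adult cells the neonatal-supernatant libraries were all above media and the adult-supernatant libraries all below. The differences were 0.40 ± 0.11 (limma adjusted p = 0.0102) and -0.57 ± 0.11 (limma adjusted p = 0.000271). The Adamts5 call with neonatal supernatant was lost without libraries 1 and 3 of adult cells in media and without library 2 of adult cells with neonatal supernatant (log2 difference 0.30 to 0.34, limma adjusted p 0.0518 to 0.063). In neonatal cells, neonatal supernatant raised Adamts5 by 0.42 ± 0.11 (limma adjusted p = 0.00998) while the difference with adult supernatant was 0.05 ± 0.11 (limma adjusted p = 0.715). The response to adult supernatant differed between the ages by 0.62 ± 0.15 (limma adjusted p = 0.0262) (interaction). The Adamts5 call of the interaction was lost without the mean-variance trend, without the pair of media libraries high in interferon genes, without library 2 of adult cells in media, without libraries 1 and 3 of adult cells with adult supernatant, without libraries 2 and 3 of neonatal cells in media and without libraries 2 and 3 of neonatal cells with adult supernatant (log2 difference 0.49 to 0.63, limma adjusted p 0.0537 to 0.0672). Neonatal cells in media held less Adamts5 than adult cells (log2 difference -1.23 ± 0.11, limma adjusted p = 4.67e-07).

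Adamts1, which cuts versican and aggrecan, fell with adult supernatant in both ages. In adult cells, Adamts1 stood at 437, 578 and 434 CPM in media, 427, 618 and 463 CPM with neonatal supernatant and 232, 239 and 215 CPM with adult supernatant. In neonatal cells, Adamts1 measured 209.9, 229.7 and 203 CPM in media, 187, 206 and 235 CPM with neonatal supernatant and 147, 173 and 161 CPM with adult supernatant. Libraries with adult supernatant were below all others of their age, and those with neonatal supernatant overlapped media. The differences with adult supernatant were -1.07 ± 0.13 (limma adjusted p = 2.53e-06) in adult cells and -0.42 ± 0.13 (limma adjusted p = 0.0119) in neonatal cells. The Adamts1 call in neonatal cells was lost without library 2 of neonatal cells in media and without library 1 of neonatal cells with adult supernatant (log2 difference -0.37 to -0.36, limma adjusted p 0.0508 to 0.054). With neonatal supernatant they were 0.05 ± 0.13 and -0.04 ± 0.13, neither called. Neonatal cells in media held less Adamts1 (log2 difference -1.16 ± 0.13, limma adjusted p = 6.59e-06). The interaction with adult supernatant was 0.64 ± 0.18 (limma adjusted p = 0.053), not called. It passed with the 5 CPM filter, with the compared groups alone, with the replicate block, with array weights, without libraries 1 and 2 of adult cells with neonatal supernatant and without library 3 of neonatal cells with neonatal supernatant (limma adjusted p 0.0173 to 0.0456).

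Adamts9, a versican-cutting enzyme of wide expression, rose with adult supernatant in both ages. In adult cells, Adamts9 stood at 9.32, 10.1 and 9.04 CPM in media, 12.3, 6.28 and 12.6 CPM with neonatal supernatant and 46.0, 41.6 and 49.1 CPM with adult supernatant. In neonatal cells, Adamts9 was at 5.55, 6.02 and 7.01 CPM in media, 17.3, 16.5 and 8.80 CPM with neonatal supernatant and 56.0, 57.0 and 60.2 CPM with adult supernatant. In adult cells neonatal supernatant overlapped media, whereas in neonatal cells it was above media, with library 3 lowest. The differences with adult supernatant were 2.26 ± 0.25 (limma adjusted p = 7.59e-07) in adult cells and 3.23 ± 0.25 (limma adjusted p = 1.19e-08) in neonatal cells, that is 4.79-fold and 9.37-fold. For neonatal supernatant they were 0.06 ± 0.25 (limma adjusted p = 0.888) and 1.14 ± 0.25 (limma adjusted p = 0.00329), and the latter was 1.46 (limma adjusted p = 0.000174) without library 3. The test of that difference between ages gave 1.08 ± 0.35 (limma adjusted p = 0.157), not called, and 1.39 (limma adjusted p = 0.0468) without library 3 of neonatal cells with neonatal supernatant.

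Adamts15, another proteoglycan-cutting enzyme, was the member whose response differed most between the ages. In adult cells, Adamts15 stood at 3.93, 8.37 and 6.37 CPM in media, 7.26, 12.4 and 9.75 CPM with neonatal supernatant and 1.82, 2.28 and 1.79 CPM with adult supernatant. In neonatal cells, Adamts15 stood at 0.371, 0.299 and 0.568 CPM in media, 1.31, 1.44 and 1.6 CPM with neonatal supernatant and 1.56, 2.36 and 2.47 CPM with adult supernatant. Adult cells with adult supernatant were below all adult-cell media libraries, while neonatal cells were above their media libraries with either supernatant. With adult supernatant Adamts15 fell by 1.61 ± 0.33 (limma adjusted p = 0.000547) in adult cells and rose by 2.39 ± 0.33 (limma adjusted p = 1.3e-05) in neonatal cells, an interaction of 4.00 ± 0.46 (limma adjusted p = 0.000108). Neonatal supernatant gave 0.69 ± 0.33 (limma adjusted p = 0.135) in adult cells and 1.86 ± 0.33 (limma adjusted p = 0.000608) in neonatal cells. In media the ages differed by -3.90 ± 0.33 (limma adjusted p = 3.1e-07), with the neonatal libraries at levels of a few reads, so the size of the neonatal rise depends on the offset. Over the 28 alternatives the neonatal rise with adult supernatant ran from 1.08 to 2.65 and stayed called, and the interaction ran from 2.38 to 4.30. With either supernatant, neonatal cells reached at most 2.47 CPM, so that adult and neonatal cells with adult supernatant overlapped. Adamts4, an aggrecanase, was not called in any comparison with media. In adult cells, Adamts4 stood at 19.6, 16.4 and 16.1 CPM in media, 16.9, 23.7 and 27.1 CPM with neonatal supernatant and 13.1, 12.8 and 11.1 CPM with adult supernatant. In neonatal cells, Adamts4 came to 13.3, 11.4 and 25.6 CPM in media, 14.8, 17.2 and 11.2 CPM with neonatal supernatant and 17.1, 15.9 and 16.8 CPM with adult supernatant. Adult cells with adult supernatant were the lowest adult-cell group, and library 3 of neonatal cells in media was high among its companions. Adamts4 was higher with neonatal than with adult supernatant in adult cells (0.85 ± 0.24 (limma adjusted p = 0.0138)). The Adamts4 call was lost without library 3 of adult cells with neonatal supernatant (log2 difference 0.70, limma adjusted p 0.0713). The difference from media in adult cells with adult supernatant, -0.49 ± 0.24, passed with the compared groups alone and without library 3 of neonatal cells in media (log2 difference -0.49, limma adjusted p 0.0217 to 0.0275).

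**Figure D4:**
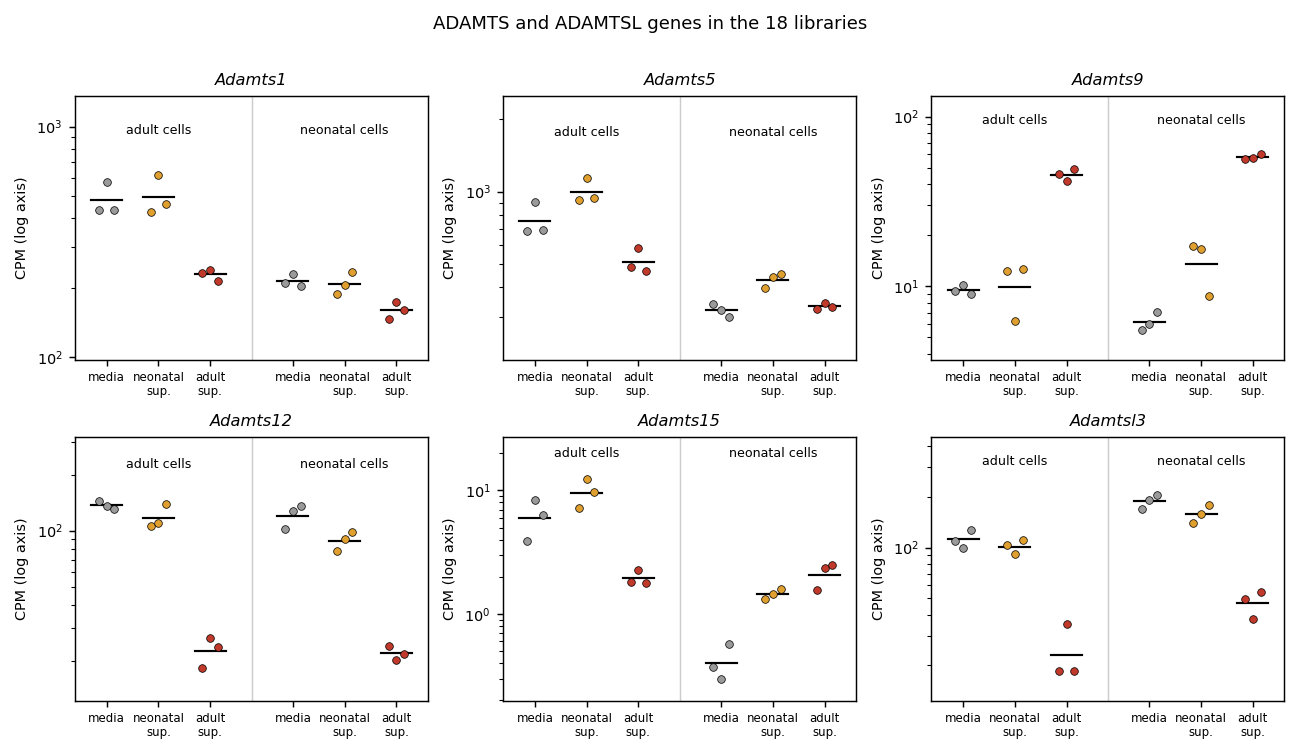
Level (CPM on a log axis) of Adamts1, Adamts5, Adamts9, Adamts12, Adamts15 and Adamtsl3 in the 18 libraries, by cell age and condition, with a line at the geometric mean of each group of 3. Adamts12 drops to 18.4 to 26.7 CPM with adult supernatant in both ages, Adamts9 climbs to 41.6 CPM or more, and Adamts15 moves down in adult cells and up in neonatal cells.

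Adamts7 and Adamts12 both cut COMP, a matrix protein abundant in tendon, and moved in opposite directions with adult supernatant. In adult cells, Adamts12 stood at 145, 135 and 131 CPM in media, 106, 109.6 and 139.5 CPM with neonatal supernatant and 18.4, 26.7 and 23.8 CPM with adult supernatant. In neonatal cells, Adamts12 measured 102, 127 and 135 CPM in media, 78.2, 89.7 and 98.8 CPM with neonatal supernatant and 24.1, 20.3 and 21.9 CPM with adult supernatant. All libraries with adult supernatant were far below the rest. With neonatal supernatant, adult-cell libraries overlapped media, and neonatal-cell libraries lay below all their media libraries. The log2 differences with adult supernatant were -2.59 ± 0.14 (limma adjusted p = 1.34e-10) in adult and -2.45 ± 0.14 (limma adjusted p = 3.69e-10) in neonatal cells. With neonatal supernatant the adult-cell difference was -0.22 ± 0.14 (limma adjusted p = 0.278), and the neonatal-cell difference -0.44 ± 0.14 (limma adjusted p = 0.035). The Adamts12 call in neonatal cells was lost without the mean-variance trend, without libraries 2 and 3 of neonatal cells in media and without libraries 1 and 2 of neonatal cells with neonatal supernatant (log2 difference -0.45 to -0.36, limma adjusted p 0.0614 to 0.148). Adamts7 measured 17.4, 22.4 and 15.9 CPM in adult cells in media, 19.3, 20.8 and 27.0 CPM with neonatal supernatant and 28.4, 36.9 and 37.0 CPM with adult supernatant. In neonatal cells, Adamts7 was at 11.9, 13.1 and 13.7 CPM in media, 15.6, 17.3 and 15.0 CPM with neonatal supernatant and 30.7, 31.9 and 24.5 CPM with adult supernatant. Adult supernatant put Adamts7 above every media library in both ages. It rose by 0.88 ± 0.16 (limma adjusted p = 0.00016) and 1.17 ± 0.16 (limma adjusted p = 1.07e-05) there, and its differences with neonatal supernatant, 0.27 ± 0.16 and 0.31 ± 0.16, were not called. In media it was lower in neonatal cells (-0.52 ± 0.16 (limma adjusted p = 0.0201)). The Adamts7 call was lost with the compared groups alone, without the pair of media libraries high in interferon genes, without library 2 of adult cells in media and without library 1 of neonatal cells in media (log2 difference -0.52 to -0.32, limma adjusted p 0.0541 to 0.261). An exon of Adamts7 overlaps Tbc1d2b on the other strand.

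The procollagen N-proteinases Adamts2, Adamts3 and Adamts14 remove the amino-terminal propeptide of fibrillar collagens. In adult cells, Adamts2 stood at 132, 154 and 141 CPM in media, 185, 224 and 213 CPM with neonatal supernatant and 112, 130.2 and 103 CPM with adult supernatant. In neonatal cells, Adamts2 stood at 45.4, 49.8 and 60.2 CPM in media, 54.0, 66.1 and 46.8 CPM with neonatal supernatant and 29.1, 37.1 and 40.2 CPM with adult supernatant. Adamts2 was above media with neonatal supernatant in adult cells and below media with adult supernatant in neonatal cells. Those differences were 0.54 ± 0.14 (limma adjusted p = 0.00854) and -0.55 ± 0.14 (limma adjusted p = 0.0041). In adult cells with adult supernatant it was -0.31 ± 0.14 (limma adjusted p = 0.0773), not called. This one passed under trimmed-mean scaling, under quantile normalization, with the compared groups alone, with the replicate block, with array weights and without library 2 of adult cells with adult supernatant (log2 difference -0.40 to -0.31, limma adjusted p 0.0272 to 0.0476). In media neonatal cells held less Adamts2 than adult cells (log2 difference -1.46 ± 0.14, limma adjusted p = 1.6e-06). In adult cells, Adamts14 was at 8.68, 11.3 and 6.84 CPM in media, 5.12, 8.70 and 7.99 CPM with neonatal supernatant and 12.0, 10.3 and 10.6 CPM with adult supernatant. In neonatal cells, Adamts14 came to 9.23, 11.4 and 9.90 CPM in media, 3.99, 6.01 and 5.04 CPM with neonatal supernatant and 7.27, 6.80 and 5.89 CPM with adult supernatant. The neonatal-cell libraries with either supernatant were below media. The log2 differences were -1.03 ± 0.22 (limma adjusted p = 0.00314) with neonatal and -0.61 ± 0.22 (limma adjusted p = 0.0308) with adult supernatant. The Adamts14 call with adult supernatant was lost without libraries 2 and 3 of neonatal cells in media and without libraries 2 and 3 of neonatal cells with adult supernatant (log2 difference -0.63 to -0.53, limma adjusted p 0.0567 to 0.105). In adult cells the values were -0.31 ± 0.22 and 0.32 ± 0.22, neither called. Adamts3 was near 1 CPM throughout, at 0.918, 1.42 and 1.27 CPM, 2.32, 1.78 and 1.10 CPM and 1.16, 0.897 and 1.16 CPM in adult cells in media, with neonatal and with adult supernatant. Neonatal cells in the same order held 0.738, 0.816 and 0.695 CPM, 0.653, 1.61 and 0.539 CPM and 1.65, 2.32 and 2.16 CPM of Adamts3. It was higher in neonatal cells with adult supernatant, where no library overlapped media (1.44 ± 0.40 (limma adjusted p = 0.00709)). The Adamts3 call was lost under quantile normalization (log2 difference 0.34, limma adjusted p 0.531).

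Adamts10 and Adamts17 are ADAMTS proteases tied to fibrillin microfibrils. In adult cells, Adamts10 stood at 73.5, 76.6 and 67.7 CPM in media, 39.9, 41.3 and 46.3 CPM with neonatal supernatant and 21.3, 23.2 and 23.7 CPM with adult supernatant. In neonatal cells, Adamts10 measured 50.1, 51.3 and 48.8 CPM in media, 30.3, 32.9 and 35.5 CPM with neonatal supernatant and 23.4, 23.3 and 25.3 CPM with adult supernatant. The 3 conditions were separate in each age, with media highest and adult supernatant lowest. Adamts10 fell by 1.68 ± 0.08 (limma adjusted p = 4.4e-11) and fell by 1.06 ± 0.08 (limma adjusted p = 1.46e-08) in adult and neonatal cells with adult supernatant. It fell by 0.77 ± 0.08 (limma adjusted p = 2.58e-06) and fell by 0.61 ± 0.08 (limma adjusted p = 4.49e-05) with neonatal supernatant. The fall with adult supernatant was smaller in neonatal cells, an interaction of 0.62 ± 0.12 (limma adjusted p = 0.00568). In media it stood lower in neonatal cells (log2 difference -0.53 ± 0.08, limma adjusted p = 0.000135). Adamts17 was at 0.209, 0.388 and 0.267 CPM in adult cells in media, 2.13, 1.11 and 1.97 CPM with neonatal supernatant and 1.29, 4.18 and 2.50 CPM with adult supernatant. In neonatal cells, Adamts17 was at 0.271, 0.481 and 1.51 CPM in media, 1.26, 1.87 and 0.346 CPM with neonatal supernatant and 4.10, 5.37 and 4.73 CPM with adult supernatant. It was above media in all adult-cell libraries with supernatant and in neonatal cells with adult supernatant, while neonatal cells with neonatal supernatant overlapped media. The differences were 3.09 ± 0.65 (limma adjusted p = 0.000688) and 2.58 ± 0.65 (limma adjusted p = 0.00651) in adult cells and 3.02 ± 0.65 (limma adjusted p = 0.000975) in neonatal cells with adult supernatant. All 3 calls start from media levels under 1 CPM in 5 of 6 libraries. They held in the 27 alternatives run, in which the differences went as low as 1.43, 1.07 and 1.77 in the same order. In neonatal cells with neonatal supernatant Adamts17 showed 0.69 ± 0.65 (limma adjusted p = 0.52), and 1.4 (limma adjusted p = 0.137) without library 3.

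The ADAMTSL genes encode matrix proteins without protease activity. With adult supernatant 3 of 4 were lower in adult cells and 3 of 4 in neonatal cells, where the other, Adamtsl1, was higher. Over all genes 23.9% and 19.5% were called lower there, and 28.2% and 28.3% higher. With neonatal supernatant 0 of 4 were called in adult and 0 of 4 in neonatal cells, and 1 and 1 had an unadjusted limma p under 0.05. Beside them stand 27.3% and 18.3% of all genes called, so 0 calls among 4 genes say little. In adult cells, Adamtsl3 stood at 109, 100.2 and 128 CPM in media, 103, 91.2 and 110.5 CPM with neonatal supernatant and 18.6, 35.3 and 18.6 CPM with adult supernatant. In neonatal cells, Adamtsl3 stood at 169, 192 and 207 CPM in media, 141, 159 and 179.9 CPM with neonatal supernatant and 49.7, 37.6 and 54.3 CPM with adult supernatant. Adamtsl3 was low in every library with adult supernatant and overlapped media with neonatal supernatant. The log2 differences were -2.28 ± 0.20 (limma adjusted p = 4.97e-08) and -2.02 ± 0.20 (limma adjusted p = 2.93e-07). In media it was higher in neonatal than in adult cells (0.75 ± 0.20 (limma adjusted p = 0.00869)). The Adamtsl3 call was lost without the pair of media libraries high in interferon genes (log2 difference 0.75, limma adjusted p 0.0519). In adult cells, Adamtsl1 was at 39.2, 47.9 and 30.5 CPM in media, 27.9, 39.8 and 40.6 CPM with neonatal supernatant and 39.4, 49.0 and 37.6 CPM with adult supernatant. In neonatal cells, Adamtsl1 came to 12.5, 10.8 and 10.1 CPM in media, 12.9, 21.2 and 7.33 CPM with neonatal supernatant and 24.9, 19.0 and 31.8 CPM with adult supernatant. Adamtsl1 was lower in neonatal than in adult cells in media (log2 difference -1.79 ± 0.29, limma adjusted p = 0.000213). Adult supernatant raised it in neonatal cells (1.15 ± 0.29 (limma adjusted p = 0.00344)) above all their media libraries, and adult cells showed 0.11 ± 0.29, not called. The test of that difference between the ages gave 1.04 ± 0.41 (limma adjusted p = 0.182), which did not pass. With neonatal supernatant neonatal cells showed 0.18 ± 0.29 (limma adjusted p = 0.73), and 0.57 (limma adjusted p = 0.132) without library 3. Adamtsl4 and Adamtsl5, both fibrillin-binding proteins, ranged from 89.9 to 184 CPM and from 67.1 to 140.0 CPM over the 18 libraries. With adult supernatant Adamtsl5 fell by 0.59 ± 0.11 in adult cells and fell by 0.54 ± 0.11 in neonatal cells. The log2 differences of Adamtsl4 were -0.26 ± 0.10 and -0.26 ± 0.10 (limma adjusted p = 0.0312 and 0.0378). The Adamtsl4 call in adult cells was lost without the mean-variance trend, with the compared groups alone, with array weights, without the pair of media libraries high in interferon genes, without library 2 of adult cells in media and without libraries 2 and 3 of adult cells with adult supernatant (log2 difference -0.27 to -0.15, limma adjusted p 0.0545 to 0.195). The Adamtsl4 call in neonatal cells was lost without the mean-variance trend, without libraries 2 and 3 of neonatal cells in media and without libraries 2 and 3 of neonatal cells with adult supernatant (log2 difference -0.26 to -0.21, limma adjusted p 0.0639 to 0.132).

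Of the 16 ADAM genes, 8 were called with adult supernatant in adult cells (4 higher, 4 lower) and 8 in neonatal cells (5 higher, 3 lower). Neonatal supernatant gave 6 calls in adult cells (4 higher, 2 lower) and 2 in neonatal cells, Adam3 higher and Adam33 lower. Beside these stand 52.0% and 47.8% of all genes called with adult and 27.3% and 18.3% with neonatal supernatant, so that with adult supernatant the ADAM share was near the background. Adam8, a shedding protease known from leukocytes and induced in inflamed tissue, rose most among the ADAM genes above 5 CPM. In adult cells, Adam8 stood at 15.6, 18.9 and 14.0 CPM in media, 27.2, 28.7 and 37.5 CPM with neonatal supernatant and 63.3, 54.0 and 70.3 CPM with adult supernatant. In neonatal cells, Adam8 measured 15.9, 19.0 and 16.4 CPM in media, 13.8, 22.3 and 15.7 CPM with neonatal supernatant and 44.3, 45.3 and 47.7 CPM with adult supernatant. In adult cells the 3 conditions were separate, and in neonatal cells only adult supernatant was. The rises with adult supernatant were 1.95 ± 0.17 (limma adjusted p = 3.8e-08) and 1.42 ± 0.17 (limma adjusted p = 2.23e-06). With neonatal supernatant Adam8 rose by 0.94 ± 0.17 (limma adjusted p = 0.000439) in adult cells, and neonatal cells showed -0.01 ± 0.17 (limma adjusted p = 0.972). The direct test of that difference gave -0.95 ± 0.24 (limma adjusted p = 0.0724), not called. It passed with array weights and without library 2 of neonatal cells with neonatal supernatant (log2 difference -1.15 to -1.01, limma adjusted p 0.0202 to 0.0401). The T cell list also summed higher with adult supernatant, as given above, and so did the odorant and vomeronasal receptor genes given below. The macrophage list (9 of 10 genes measured) had a mean of 1.91 to 2.29 log2 CPM in adult cells in media, 2.72 to 2.93 with neonatal and 2.60 to 2.64 with adult supernatant, and of 0.52 to 1.11, 1.56 to 2.19 and 2.12 to 2.28 in neonatal cells. Its summed level was 106 to 133, 94.3 to 123 and 72.8 to 81.5 CPM in adult cells and 38.8 to 59.9, 57.8 to 90.2 and 49.1 to 61.4 CPM in neonatal cells in that order. The part of these cells in Adam8 was not tested.

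Adam17 (TACE) is the main sheddase of TNF and of EGF-family ligands, and Adam10 the main sheddase of Notch receptors. In adult cells, Adam17 stood at 81.3, 87.2 and 85.1 CPM in media, 100.4, 102 and 96.6 CPM with neonatal supernatant and 99.9, 113 and 98.3 CPM with adult supernatant. In neonatal cells, Adam17 was at 77.2, 70.7 and 83.6 CPM in media, 79.6, 87.3 and 84.7 CPM with neonatal supernatant and 96.9, 92.8 and 93.1 CPM with adult supernatant. Adam17 was above media with either supernatant in adult cells and with adult supernatant in neonatal cells, by small amounts. The differences were 0.29 ± 0.07 (limma adjusted p = 0.00181) and 0.29 ± 0.07 (limma adjusted p = 0.00202) with adult supernatant and 0.24 ± 0.07 (limma adjusted p = 0.0159) with neonatal supernatant in adult cells. The Adam17 call with neonatal supernatant was lost without library 1 of adult cells in media and without library 2 of adult cells with neonatal supernatant (log2 difference 0.21 to 0.22, limma adjusted p 0.0571 to 0.0653). An exon of Adam17 overlaps Iah1 on the other strand. In adult cells, Adam10 stood at 199, 185 and 173 CPM in media, 184, 195 and 169 CPM with neonatal supernatant and 158, 164 and 163 CPM with adult supernatant. In neonatal cells, Adam10 stood at 164, 192 and 210.0 CPM in media, 184, 174 and 199 CPM with neonatal supernatant and 178, 179 and 179 CPM with adult supernatant. Adam10 lay in one range in all groups, save that adult cells with adult supernatant were lowest. That difference was -0.20 ± 0.08 (limma adjusted p = 0.0485). The Adam10 call was lost in 13 of 28 alternatives, 11 of them leaving out 1 library each (log2 difference -0.21 to -0.15, limma adjusted p 0.0567 to 0.188). The others against media were between -0.07 ± 0.08 and -0.02 ± 0.08, not called.

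Adam12, Adam15, Adam19 and Adam33 are ADAM proteases expressed in mesenchymal cells. In adult cells, Adam12 stood at 144, 114 and 135 CPM in media, 214, 191 and 220.4 CPM with neonatal supernatant and 82.5, 73.1 and 70.3 CPM with adult supernatant. In neonatal cells, Adam12 came to 119, 147 and 164 CPM in media, 147, 148 and 143 CPM with neonatal supernatant and 86.8, 82.9 and 86.4 CPM with adult supernatant. In adult cells Adam12 was above media with neonatal supernatant and below media with adult supernatant. Those differences were 0.67 ± 0.10 (limma adjusted p = 0.000126) and -0.80 ± 0.10 (limma adjusted p = 5.8e-06). In neonatal cells it fell with adult supernatant (-0.74 ± 0.10 (limma adjusted p = 1.81e-05)) and was 0.04 ± 0.10 (limma adjusted p = 0.852) with neonatal supernatant. The difference between the ages in the response to neonatal supernatant was -0.63 ± 0.15 (limma adjusted p = 0.0528), which did not pass. It passed under quantile normalization, with a pseudocount of 1 CPM, with the 5 CPM filter, with array weights, without the pair of media libraries high in interferon genes, without library 1 of adult cells in media and without library 1 of neonatal cells in media (log2 difference -0.76 to -0.62, limma adjusted p 0.0168 to 0.0486). In adult cells, Adam33 stood at 43.0, 44.8 and 36.7 CPM in media, 12.3, 13.3 and 16.8 CPM with neonatal supernatant and 5.59, 10.3 and 6.11 CPM with adult supernatant. In neonatal cells, Adam33 measured 17.5, 17.5 and 13.5 CPM in media, 4.06, 6.44 and 4.73 CPM with neonatal supernatant and 1.88, 2.19 and 3.51 CPM with adult supernatant. Every condition of Adam33 was separate within each age, with media highest. It fell by 2.55 ± 0.26 (limma adjusted p = 2.9e-07) and fell by 2.72 ± 0.26 (limma adjusted p = 1.7e-07) with adult supernatant. For neonatal supernatant the log2 differences were -1.56 ± 0.26 (limma adjusted p = 0.000222) and -1.69 ± 0.26 (limma adjusted p = 0.000148). In media neonatal cells held less of it (log2 difference -1.36 ± 0.26, limma adjusted p = 0.000757). No alternative ended any of these calls. In adult cells, Adam15 was at 312, 314 and 301 CPM in media, 273, 278 and 236 CPM with neonatal supernatant and 289, 266 and 274 CPM with adult supernatant. In neonatal cells, Adam15 was at 300.5, 268 and 249 CPM in media, 227, 249 and 243 CPM with neonatal supernatant and 254, 281 and 266 CPM with adult supernatant. Adam15, the ADAM gene with the highest level per kb in media, was called once, in adult cells with neonatal supernatant (-0.24 ± 0.07 (limma adjusted p = 0.0206)). The Adam15 call was lost without libraries 1 and 2 of adult cells in media and without library 3 of adult cells with neonatal supernatant (log2 difference -0.23 to -0.17, limma adjusted p 0.0575 to 0.107). In adult cells, Adam19 was at 441, 342 and 354 CPM in media, 338, 324 and 371 CPM with neonatal supernatant and 362, 354 and 332 CPM with adult supernatant. In neonatal cells, Adam19 stood at 309, 366 and 313 CPM in media, 306, 312 and 290.3 CPM with neonatal supernatant and 309.8, 314 and 295 CPM with adult supernatant. Adam19 overlapped between all conditions of an age and was called in none, with differences from -0.13 ± 0.09 to -0.10 ± 0.09.

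**Figure D5:**
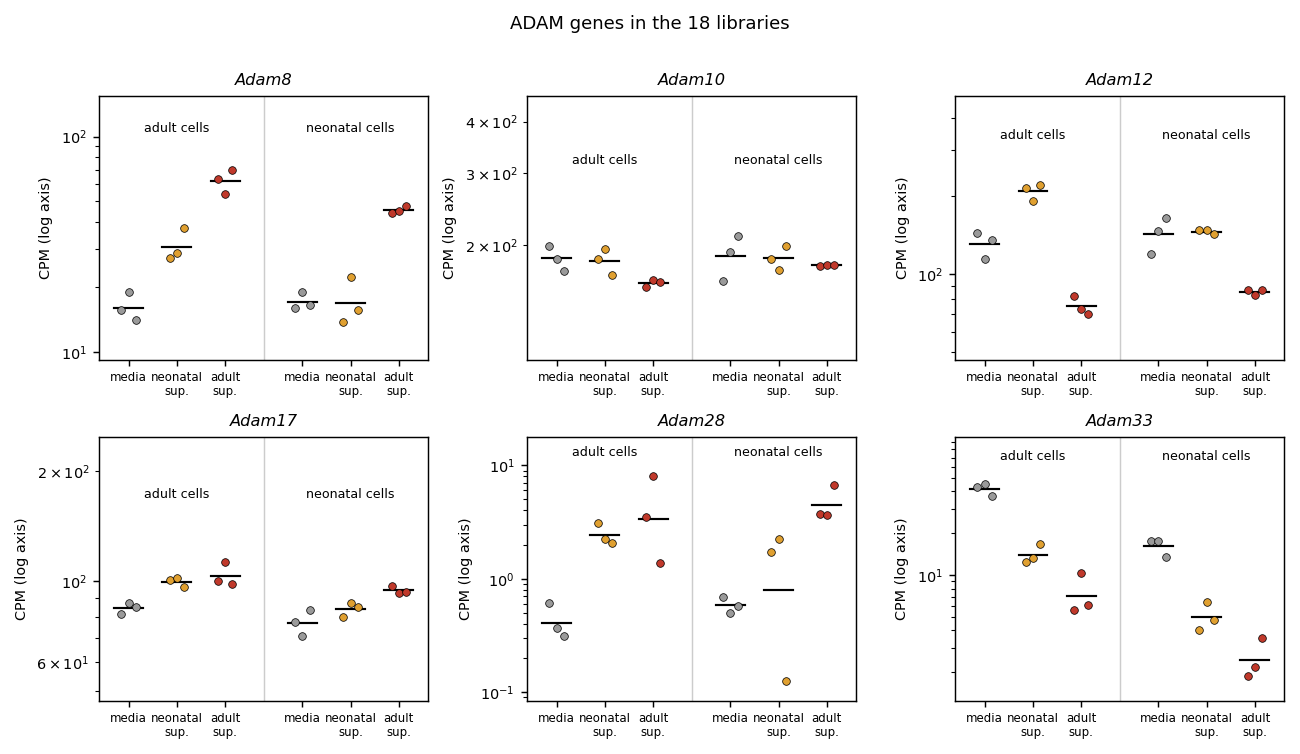
Level (CPM on a log axis) of Adam8, Adam10, Adam12, Adam17, Adam28 and Adam33 in the 18 libraries, by cell age and condition, with a line at the geometric mean of each group of 3. Adam33 drops from 36.7 CPM or more in adult cells in media to 10.3 CPM or less with adult supernatant, Adam8 climbs, and 1 neonatal-supernatant library of Adam28 sits at the lowest value of the table, 0.127 CPM.

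The remaining ADAM genes comprise Adam11, Adam22 and Adam23, which lack protease activity, Adam28, known from lymphocytes, and Adam1a, Adam3, Adam4, Adam5 and Adam32, known from testis and sperm. Adam23 ranged from 30.2 to 50.0 CPM and fell with adult supernatant (log2 difference -0.42 ± 0.11 in adult and -0.41 ± 0.11 in neonatal cells) (limma adjusted p = 0.00376 and 0.00567). Adam22 ranged from 3.46 to 18 CPM, the highest in library 2 of adult cells with adult supernatant, and was not called. Without that library its difference with adult supernatant in adult cells was -1.0 (limma adjusted p = 0.0188). Adam11, Adam1a, Adam4 and Adam5 did not exceed 4.02 CPM and were not called against media. The adult-cell difference of Adam1a with adult supernatant passed under quantile normalization, with a pseudocount of 1 CPM, with the compared groups alone, with array weights and without library 3 of neonatal cells with neonatal supernatant (log2 difference -1.63 to -0.69, limma adjusted p 0.00459 to 0.0396). Adam1a shares exons with Mapkapk5 in the annotation and Adam4 lies inside Cox16. In adult cells Adam28 was at 0.607, 0.365 and 0.312 CPM in media, 3.11, 2.24 and 2.08 CPM with neonatal supernatant and 3.49, 8.10 and 1.37 CPM with adult supernatant. In neonatal cells, Adam28 came to 0.695, 0.498 and 0.581 CPM in media, 1.72, 2.26 and 0.127 CPM with neonatal supernatant and 3.74, 3.62 and 6.66 CPM with adult supernatant. It was above media in all libraries with supernatant but library 3 of neonatal cells with neonatal supernatant, which was at the lowest value of the table. The differences were 3.04 ± 0.81 (limma adjusted p = 0.00469) and 2.57 ± 0.81 (limma adjusted p = 0.0262) in adult cells and 2.94 ± 0.81 (limma adjusted p = 0.0067) in neonatal cells with adult supernatant. The Adam28 call with neonatal supernatant was lost under quantile normalization, without the pair of media libraries high in interferon genes, without libraries 2 and 3 of adult cells in media and without libraries 1 and 2 of adult cells with neonatal supernatant (log2 difference 1.77 to 2.63, limma adjusted p 0.0571 to 0.107). In neonatal cells with neonatal supernatant it was 0.43 ± 0.81 (limma adjusted p = 0.778), and 1.75 (limma adjusted p = 0.0397) without library 3. Adam32 was at 0.848, 0.403 and 0.470 CPM, 2.63, 0.676 and 0.545 CPM and 2.47, 5.46 and 1.65 CPM in adult cells in media, with neonatal and with adult supernatant. The neonatal values of Adam32 were 0.420, 0.371 and 1.15 CPM, 1.78, 0.732 and 1.07 CPM and 2.25, 2.27 and 1.00 CPM in that order. With adult supernatant it was above media in adult cells and overlapped media in neonatal cells. The differences were 2.37 ± 0.64 (limma adjusted p = 0.00501) and 1.61 ± 0.64 (limma adjusted p = 0.0471). The Adam32 call in neonatal cells was lost in 14 of 27 alternatives, 8 of them leaving out 1 library each (log2 difference 0.32 to 1.61, limma adjusted p 0.0508 to 0.707). Adam3 did not reach 1 CPM in media, with 0.646, 0.270 and 0.367 CPM in adult and 0.213, 0.658 and 0.304 CPM in neonatal cells. It was at 0.728, 1.17 and 0.721 CPM with neonatal and 0.536, 1.21 and 0.613 CPM with adult supernatant in adult cells, and at 1.12, 0.643 and 1.51 CPM and 1.13, 1.01 and 0.825 CPM in neonatal cells. Its calls in neonatal cells were 1.49 ± 0.51 (limma adjusted p = 0.023) with adult and 1.56 ± 0.51 (limma adjusted p = 0.0427) with neonatal supernatant. The first was -0.14 under quantile normalization, the reverse direction. The Adam3 call with adult supernatant was lost without the pair of media libraries high in interferon genes, without libraries 1 and 3 of neonatal cells in media and without libraries 1 and 2 of neonatal cells with adult supernatant (log2 difference 1.13 to 1.47, limma adjusted p 0.0554 to 0.11). The Adam3 call with neonatal supernatant was lost in 15 of 27 alternatives, 9 of them leaving out 1 library each (log2 difference 0.58 to 1.56, limma adjusted p 0.0506 to 0.383).

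Several of these rises concern genes near the detection limit. Of the 36 members, 25 reached 1 CPM in every library and 11 did not (Adam11, Adam1a, Adam28, Adam3, Adam32, Adam4, Adam5, Adamts15, Adamts17, Adamts3 and Timp4). Among these 11, Adam28, Adam3, Adam32, Adamts17, Adamts3 and Timp4 were called higher in some comparison with media and none of these 6 lower. Adamts15 was called higher in neonatal cells with either supernatant and lower in adult cells with adult supernatant. Adam11, Adam1a, Adam4 and Adam5 were called in none of the 4 comparisons with media, as were 35.1% of all genes. The same libraries gained reads in odorant and vomeronasal receptor genes, which tendon cells are not known to use. These 68 genes, listed after their values were seen, summed to 44.5 to 49.2 CPM in adult cells in media, 142 to 203 CPM with neonatal supernatant and 289 to 721 CPM with adult supernatant. In neonatal cells they summed to 34.4 to 40.5, 58.8 to 137 and 315 to 425 CPM. The highest sum was in library 2 of adult cells with adult supernatant, where Adam28, Adam32, Adam22, Adamts17 and Timp4 also had the highest values of their group. Adamts3, at 0.897 CPM, was the lowest of its group in that library. The lowest sum with a supernatant was in library 3 of neonatal cells with neonatal supernatant, where Adam28 was at the lowest value of the table. Adamts17 and Adamts3 were also the lowest of their group there, whereas Adam3 (1.51 CPM), Adamts15 (1.60 CPM) and Timp4 (0.925 CPM) were the highest. The T cell list ranked the libraries in the same order as these receptor genes in adult cells with either supernatant and in neonatal cells with neonatal supernatant. In neonatal cells with adult supernatant and in media the orders differed. The part of the odorant and vomeronasal reads in the rises of the low members and of the T cell list was not tested.

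In media, 12 of the 36 members differed between neonatal and adult cells, 11 lower in neonatal cells and 1 higher. Over all genes 28.6% were called, 16.7% higher and 12.0% lower. The lower members were Timp2, Timp3, Adam33, Adamts1, Adamts2, Adamts5, Adamts7, Adamts10, Adamts15, Adamtsl1 and Adamtsl4, and the higher one was Adamtsl3. The log2 difference of Adamtsl4 was -0.50 ± 0.10 (limma adjusted p = 0.000953), and the values of the others are given above. The largest, Adamts15, was at 3.93 to 8.37 CPM in adult and 0.299 to 0.568 CPM in neonatal cells. The median over members was -0.25, beside 0.01 over all genes. Adult and neonatal cells differ in age, in tendons per well and in vortexing or pipetting during digestion, which cannot be told apart.

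The responses themselves differed between the ages for 3 of 36 members with adult supernatant, Adamts5, Adamts10 and Adamts15, where 4.55% of all genes were called (3.00% with a larger value in neonatal cells and 1.55% with a smaller one). All 3 fell in adult cells, and all 3 were lower in neonatal than in adult cells in media. The adult-cell response is part of the interaction, and the media libraries enter it with the opposite sign to the age comparison in media. These traits are therefore not independent of the interaction calls. With neonatal supernatant the interaction was called for 0 of 36 members in limma, although 8 had an unadjusted p under 0.05, and for 0.855% of all genes (0.493% and 0.361%). No other tool was run. In the simulation of the interaction with adult supernatant, with 200 genes changed, differences of 1 log2 unit were recovered in 47.7% of cases. The real comparison called 655 genes, so its rate may differ, and the interaction with neonatal supernatant was not simulated. A miss does not show that the ages respond alike.

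Partner genes of the proteases were counted in 5 lists, with calls in the same fits and the same backgrounds. Over all genes, adult supernatant called 28.2% higher and 23.9% lower in adult cells and 28.3% and 19.5% in neonatal cells (medians 0.03 and 0.07). Neonatal supernatant called 16.1% higher and 11.2% lower in adult cells and 10.7% and 7.62% in neonatal cells. The lists were not tested as sets. Of the metalloproteinases that TIMPs bind, with adult supernatant 3 of 14 were higher and 6 lower in adult cells, and 4 higher and 7 lower in neonatal cells (medians -0.15 and -0.14). For neonatal supernatant the counts were 3 higher and 4 lower in adult cells and 3 higher and 4 lower in neonatal cells. Mmp2, the gelatinase that TIMP2 and MMP14 help to activate, showed log2 differences of -1.76 and -0.05 in adult cells with adult and neonatal supernatant and -1.46 and -0.54 in neonatal cells (SE 0.11), of which the second was not called. Mmp14, a membrane-bound collagenase, fell in all 4 comparisons, with log2 differences of -1.36 and -0.47 in adult cells with adult and neonatal supernatant and -1.31 and -0.62 in neonatal cells (SE 0.07). Mmp11 showed log2 differences of -2.38 and -0.10 in adult cells with adult and neonatal supernatant and -1.07 and -0.34 in neonatal cells (SE 0.12), with no call for neonatal supernatant, and Mmp23 fell in all 4, with log2 differences of -1.81 and -0.46 in adult cells with adult and neonatal supernatant and -1.99 and -0.81 in neonatal cells (SE 0.13). Thus Timp1 rose while these 4 metalloproteinases, the ones of smallest p in the list, fell with adult supernatant, and Mmp3, Mmp10 and Mmp13, chosen after their values were seen, rose with it in both ages (by 4.38, 2.09 and 2.58 in adult cells).

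Of the substrates of ADAMTS enzymes, with adult supernatant 4 of 14 were higher and 8 lower in adult cells, and 5 higher and 9 lower in neonatal cells (medians -0.83 and -0.55). With neonatal supernatant the counts were 4 higher and 3 lower in adult cells and 3 higher and 4 lower in neonatal cells. Beside these and the counts below, 52.0% and 47.8% of all genes were called with adult and 27.3% and 18.3% with neonatal supernatant. Vcan, encoding versican, rose in all 4, with log2 differences of 1.26 and 1.50 in adult cells with adult and neonatal supernatant and 1.77 and 1.45 in neonatal cells (SE 0.10). Fmod, a collagen-binding proteoglycan of tendon, showed log2 differences of -2.73 and -0.64 in adult cells with adult and neonatal supernatant and -2.82 and -0.35 in neonatal cells (SE 0.13), with no call for the last. Col1a1 and Col5a1, fibrillar collagens whose propeptides ADAMTS enzymes cut, fell in all 4, Col1a1 with log2 differences of -1.64 and -0.48 in adult cells with adult and neonatal supernatant and -1.17 and -0.34 in neonatal cells (SE 0.10) and Col5a1 with log2 differences of -2.32 and -0.88 in adult cells with adult and neonatal supernatant and -1.96 and -0.78 in neonatal cells (SE 0.12). Fmod and Col1a1 are also in the tendon identity list given above. Of the microfibril partners of ADAMTSL proteins, with adult supernatant 1 of 10 were higher and 7 lower in adult cells, and 0 higher and 6 lower in neonatal cells (medians -1.17 and -0.64). For neonatal supernatant the counts were 2 higher and 3 lower in adult cells and 0 higher and 3 lower in neonatal cells. The fibrillin gene Fbn1 showed log2 differences of -1.47 and -0.26 in adult cells with adult and neonatal supernatant and -1.02 and -0.13 in neonatal cells (SE 0.12), called only with adult supernatant, and Fbn2 fell in all 4, with log2 differences of -1.62 and -1.81 in adult cells with adult and neonatal supernatant and -2.66 and -1.99 in neonatal cells (SE 0.23). Ltbp1, a latent TGF-beta binding protein, fell in all 4, with log2 differences of -1.34 and -0.57 in adult cells with adult and neonatal supernatant and -0.76 and -0.31 in neonatal cells (SE 0.10). Fbln5 showed log2 differences of -1.26 and 0.13 in adult cells with adult and neonatal supernatant and -1.69 and -0.61 in neonatal cells (SE 0.21), called with adult supernatant alone.

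Of the regulators and substrates of shedding, with adult supernatant 12 of 25 were higher and 5 lower in adult cells, and 11 higher and 5 lower in neonatal cells (medians 0.28 and 0.21). With neonatal supernatant the counts were 9 higher and 7 lower in adult cells and 7 higher and 4 lower in neonatal cells. The all-gene shares, here and for the list below, were again 52.0% and 47.8% with adult and 27.3% and 18.3% with neonatal supernatant. Cxcl16, a transmembrane chemokine that ADAM10 sheds, rose in all 4, with log2 differences of 3.8 and 2.25 in adult cells with adult and neonatal supernatant and 4.30 and 1.78 in neonatal cells (SE 0.25). The TNF receptors, which ADAM17 sheds, rose in all 4 as well, Tnfrsf1a with log2 differences of 0.24 and 0.19 in adult cells with adult and neonatal supernatant and 0.68 and 0.51 in neonatal cells (SE 0.05) and Tnfrsf1b with log2 differences of 0.51 and 0.84 in adult cells with adult and neonatal supernatant and 1.45 and 1.22 in neonatal cells (SE 0.11). Jag1, a Notch ligand, fell in all 4, with log2 differences of -3.42 and -2.25 in adult cells with adult and neonatal supernatant and -2.75 and -1.57 in neonatal cells (SE 0.26). The iRhom genes, whose products carry ADAM17 to the surface, were chosen after their values were seen and parted, with Rhbdf2 showing log2 differences of 0.77 and 0.58 in adult cells with adult and neonatal supernatant and 1.27 and 0.89 in neonatal cells (SE 0.10) and Rhbdf1 log2 differences of -0.73 and -0.36 in adult cells with adult and neonatal supernatant and -0.82 and -0.47 in neonatal cells (SE 0.06), all called. Of the genes for activation, modification, clearance and other inhibitors, with adult supernatant 5 of 14 were higher and 6 lower in adult cells, and 5 higher and 6 lower in neonatal cells (medians 0.25 and -0.01). For neonatal supernatant the counts were 5 higher and 4 lower in adult cells and 2 higher and 3 lower in neonatal cells. Pcsk6, a proprotein convertase, fell in all 4, with log2 differences of -3.60 and -2.19 in adult cells with adult and neonatal supernatant and -3.15 and -1.48 in neonatal cells (SE 0.19), while Bmp1, the procollagen C-proteinase, rose in all 4, with log2 differences of 0.54 and 0.98 in adult cells with adult and neonatal supernatant and 0.62 and 0.79 in neonatal cells (SE 0.07). Reck, a membrane-anchored inhibitor of metalloproteinases, showed log2 differences of -1.52 and -0.74 in adult cells with adult and neonatal supernatant and -0.91 and -0.37 in neonatal cells (SE 0.13), with no call for the last. Pofut2, which adds fucose to the thrombospondin repeats of ADAMTS proteins, fell in all 4, with log2 differences of -0.80 and -0.22 in adult cells with adult and neonatal supernatant and -0.65 and -0.33 in neonatal cells (SE 0.06).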

How the data were processed

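RNA of 18 libraries was sequenced after polyA selection with the NEBNext Ultra II kit, per the labels' protocols. Per the submitters' processing notes, the tools were kallisto, whose version no source used here gives, and limma 3.56.2, on the mouse build GRCm39. The authors deposited 1 table of log2 CPM for 14391 genes, all with at least 1 CPM in 3 libraries and scaled to library totals, and raw counts were not used here. No other per-sample column was found, so 0 were left out. CPM in the text are 2 to the power of the deposited log2 value. Depth was estimated from the spacing of low values, of which 8.39 to 17.7% fell on whole reads to within 0.02 reads, so recovery was too incomplete for a count test. That share was 8.39% against 7.84% at the best other total in the least clear library, library 3 of neonatal cells with adult supernatant.

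A linear model per gene (limma 3.58.1 with eBayes and its mean-variance trend, R 4.3.3, two-sided) took the deposited log2 values of all 6 groups, which share 12 residual and 4.59 prior degrees of freedom. A call needs an adjusted p (Benjamini-Hochberg over all 14391 genes) below 0.05. An interaction is the response of neonatal cells less that of adult cells. Errors are SE of log2 differences or SD over libraries. Recovery of changes of 0.5, 1 and 2 log2 units was measured on simulated data with 14391 genes, of which 200 were changed in 1 group. It was 33.9, 67.1 and 92.6% in the comparison of adult supernatant with media in adult cells (3.68% of calls false). In its interaction with cell age it was 15.9, 47.7 and 68.2% (2.25% false). More genes were called in the real comparisons, 7490 and 655, and the adjustment depends on that number, so these rates may differ there.

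The members and lists were chosen with earlier results of these data known. Values in every library are given for 17 members named in the rule whatever their values (Timp1 to Timp4, Adam8, Adam10, Adam12, Adam15, Adam17, Adam19, Adamts1, Adamts2, Adamts4, Adamts5, Adamts9, Adamts12 and Adamts15) and for each other member called with a difference of at least 1 log2 unit against media or between ages in media. Partner genes are the 4 of smallest p in each list. Lengths and overlaps come from GENCODE M21 and promoters from RefSeq, both on GRCm38, another build than that of the table. Alternatives were trimmed-mean scaling, pseudocounts of 0.1 and 1 CPM, quantile normalization, array weights, no trend, a minimum of 5 CPM in 3 libraries, the compared groups alone, a replicate block, and leaving out each library or the pair of media libraries high in interferon genes. Python 3.11.15, numpy 2.4.6, pandas 2.3.3 and matplotlib 3.10.9 made tables and plots.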

Additional observations from a re-analysis of the deposited data

Results flagged for a closer look

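The response to adult supernatant differed between neonatal and adult cells, by limma's test of the interaction with Benjamini-Hochberg adjustment, for 3 members. The interaction was 4.00 log2 units for Adamts15, which fell in adult cells and rose in neonatal cells from a level of a few reads. It was 0.62 for Adamts10, which fell in cells of both ages, by less in neonatal cells. For Adamts5 it was also 0.62, with a fall in adult cells and no call in neonatal cells. The Adamts5 interaction was lost in 9 of 28 alternatives, 7 of which left out 1 library each, while those of Adamts10 and Adamts15 held in all 28.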

How the results depend on the processing

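Of 126 member calls, 92 held under all 28 alternatives in which the member could be fitted, and 34 were lost in at least 1. Adam3 in neonatal cells with adult supernatant was reversed, to -0.14 log2 units, under quantile normalization, and the cause was not tested. The count of members with an interaction with adult supernatant, 3, became 5 with the compared groups alone and 5 with array weights. The count for neonatal supernatant, 0, became 1 under quantile normalization, with a pseudocount of 1 CPM, with the 5 CPM filter (11334 genes, 26 members) and without the pair of media libraries high in interferon genes, and 2 with array weights. Leaving out each library gave 20 to 23 members called for adult supernatant in adult cells and 21 to 25 in neonatal cells, and 10 to 13 and 9 to 11 for neonatal supernatant. It gave 17 to 19 in adult and 14 to 23 in neonatal cells between the supernatants, 12 to 15 between ages in media, and 2 to 4 and 0 to 1 for the interactions with adult and neonatal supernatant. Over all genes quantile normalization moved the median difference by -0.12 for adult supernatant in adult cells, by -0.18 in neonatal cells, and by 0.13 for neonatal against adult supernatant in neonatal cells, and trimmed-mean scaling moved it by -0.12 for adult supernatant in neonatal cells. Beside that reversal, quantile normalization lost 11 member calls and made 14, array weights lost 3 and made 14, and trimmed-mean scaling lost 1 and made 6. Over all genes, replicate numbers gave little sign of pairing. Of 45 pairs of libraries with the same number in different groups, 2 had a correlation of deviations over 0.1 (range -0.16 to 0.22). Between adult-cell groups these correlations were small but mostly positive (-0.02 to 0.08). Library 2 was the highest of each adult-cell group for Adamts1, Adamts2, Adamts5 and Adamts15, picked after their values were seen. A shared effect of replicate number is therefore not excluded, and the main fit has no term for it. With the replicate block, 22 members were called for adult supernatant in adult cells and 25 in neonatal cells, 13 and 10 for neonatal supernatant, and 4 for the interaction with adult supernatant, and over all genes 7429 rather than 7490 were called in adult cells with adult supernatant. Depth limits the members under 1 CPM in media, where 3 reads equal 0.169 to 0.237 CPM.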
